A study of Homo sapiens with 12 samples.

Results

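The endoplasmic reticulum chaperones and disulfide isomerases described here are 10 genes, HSPA5, HSP90B1, HYOU1, DNAJB9, CALR, CANX, PDIA3, PDIA4, P4HB and PDIA6. They were chosen by name for what their proteins do, and are 10 of the 18569 Ensembl gene IDs in the tables, with 2482 of the 842183 listed positions. All 10 had enough reads to be tested in every comparison of reads per gene. The cells were LNCaP-AI, an androgen-independent line derived from the prostate cancer line LNCaP and labelled as castration-resistant prostate cancer, and all of them, controls included, were kept under androgen deprivation. The groups were shMETTL1 AlkAniline-Seq libraries (3), shscramble AlkAniline-Seq libraries (3), and the input libraries of shMETTL1 (3) and of shscramble (3). METTL1 was silenced stably in the shMETTL1 line, with shscramble as its control, and METTL1 is the catalytic subunit of an enzyme that places N7-methylguanosine (m7G) on RNA. In AlkAniline-Seq, RNA is cut chemically at m7G and the new ends are sequenced, so reads collect at single positions, while the input was sequenced without that enrichment. The comparison asks how the reads of these genes, and single positions in them, differed after METTL1 was silenced.

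Proteins that enter the secretory pathway fold in the endoplasmic reticulum, where Hsp70- and Hsp90-type chaperones, lectin chaperones and disulfide isomerases attend to them. When unfolded proteins build up, the unfolded protein response raises the transcription of these genes together through the factors ATF6 and XBP1, and secretory epithelia such as that of the prostate depend on them. The best known DNA element of that response is the ERSE, which joins a CCAAT box to a CCACG box across a spacer of fixed length.

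The promoters were searched for these elements, which belong to a response known to raise these genes. The matches therefore describe the genes and are no independent support for any result on the libraries. RefSeq windows of 300 bases (build GRCh38.p14, from 250 bases before to 50 after a transcript start) were given for 9 of the 10 genes, all but PDIA3. The ERSE, searched as CCAAT and CCACG with 9 bases of any kind between them on either strand, was found in 5 of these 9 genes and in 25 of all 27305 genes with such a window (0.0916%). HSP90B1 held a pair of them, and the CANX site lay in the windows of 3 alternative starts. The fixed bases of the element are in capitals in the following sites, each read 5′ to 3′ on the strand named with it.
HSPA5, chr9:125241386-125241414, minus strand: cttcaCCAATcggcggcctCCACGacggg
HSP90B1, chr12:103930211-103930239, plus strand: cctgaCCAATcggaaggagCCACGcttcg
HSP90B1, chr12:103930316-103930344, minus strand: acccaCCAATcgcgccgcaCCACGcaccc
CALR, chr19:12938379-12938407, minus strand: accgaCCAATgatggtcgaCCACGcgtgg
CANX, chr5:179698773-179698801, plus strand: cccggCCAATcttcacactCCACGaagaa
PDIA6, chr2:10812848-10812876, minus strand: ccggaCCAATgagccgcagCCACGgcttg
HYOU1 held no ERSE but held the shorter ERSE-II, ATTGG and CCACG with 1 base between them, at 2 sites, an element present in 19 of the 27305 genes (0.0696%). It also held the only match among the 9 genes to TGACGTGG, the core of the XBP1 element UPRE, which 253 genes hold (0.927%) and which here overlaps an ERSE-II on the other strand.
HYOU1 ERSE-II, chr11:119057269-119057289, plus strand: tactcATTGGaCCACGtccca
HYOU1 ERSE-II, chr11:119057375-119057395, plus strand: ctgggATTGGaCCACGtcacg
HYOU1 UPRE, chr11:119057381-119057398, minus strand: ccccgTGACGTGGtccaa
DNAJB9, PDIA4 and P4HB held none of the 3 motifs in their windows. A match says only that these letters are there.

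**Figure D1:**
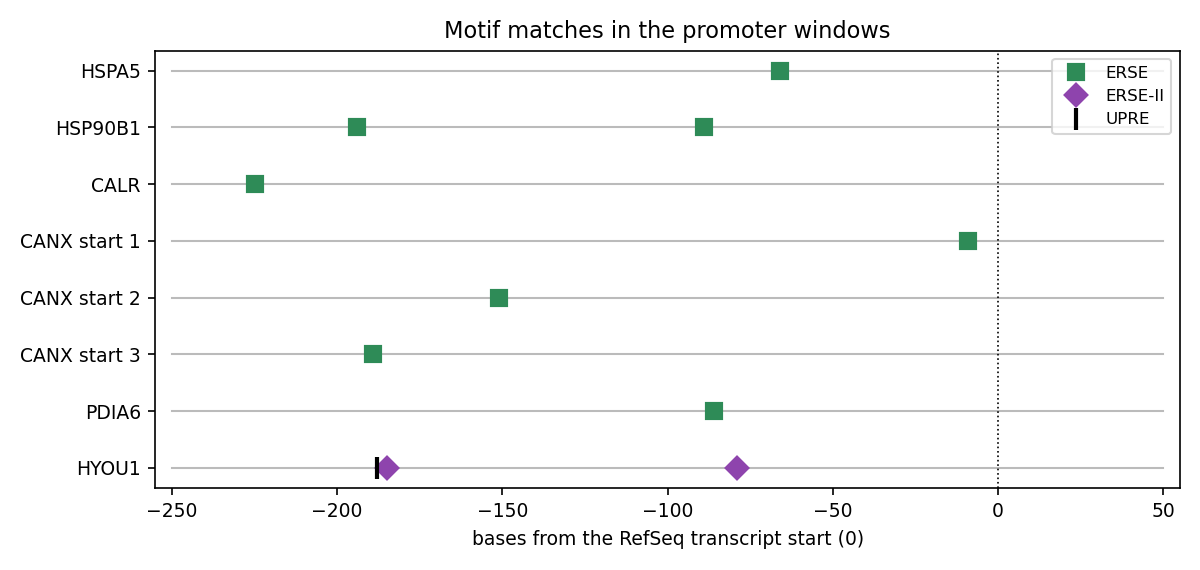
Distance of each motif match from the RefSeq transcript start (horizontal axis, bases, start at 0), with a row for each gene or alternative start that holds one. Squares are ERSE, diamonds ERSE-II and the bar UPRE. ERSE matches lie in 5 genes, and both ERSE-II matches and the UPRE match lie in HYOU1.

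AlkAniline-Seq counts summed to between 2474464 and 2764417 reads in the shMETTL1 libraries and between 1421551 and 2624431 in the shscramble libraries, and input counts to between 2783709 and 3258499 in shMETTL1 and between 3045523 and 3152800 in shscramble. 2 libraries stood apart. Every position of the 10 genes with 50 or more reads in shscramble AlkAniline-Seq replicate 2 or 3 (100%) was also read in shscramble replicate 1, while for every other pair of libraries that share lay between 46.0% and 85.7%. Over positions of all genes the share was 99.9 to 100%, against 31.1 to 63.4% for every other pair. Whether the 3 shscramble AlkAniline-Seq libraries are independent of each other was not tested, so SDs and p-values that use them as 3 carry that limit. Shscramble input replicate 2 had reads at 72098 positions, the fewest of the input libraries, and a TMM scaling factor of 0.67, with the others between 1.01 and 1.19. Many values that moved by over 1.5 times without either library are given without it, beside the result or in ranges over left-out replicates. The files pair no gene ID with a symbol, so the level of METTL1, prostate markers and other genes of the unfolded protein response were not analysed here. Nothing in the labels says that replicates were separate cultures, so p-values measure the spread between these libraries.

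HSPA5 (ENSG00000044574), the Hsp70 chaperone BiP that also holds the stress sensors of the endoplasmic reticulum inactive, had the smallest p of the 10 genes in AlkAniline-Seq reads and in the input. Its AlkAniline-Seq reads were at 918, 868 and 1348 CPM (reads scaled to library size after TMM normalization) in shMETTL1 replicates 1, 2 and 3 and at 310, 705 and 222 CPM in shscramble replicates 1, 2 and 3. All 3 shMETTL1 libraries lay above all 3 shscramble libraries, and shscramble replicate 2 was the nearest to them. The means were 1045 ± 264 CPM in shMETTL1 and 412 ± 257 CPM in shscramble (SD, n = 3 each). The log2 fold change was 1.34 (standard error 0.38), with an unadjusted p = 0.0027 and an adjusted p = 0.47 in edgeR's quasi-likelihood test with Benjamini-Hochberg adjustment, which is not past the threshold of 0.05. By that p it was 54th of the 11097 gene IDs tested. DESeq2 put it just past the threshold (1.36, adjusted p = 0.0495), and so did edgeR with no filter on low counts (1.46, adjusted p = 0.0034), whereas over the other alternatives the adjusted p lay above 0.05. Over all gene IDs, DESeq2 called 178 of 10260 and edgeR with no filter 19 of 17561. Without shscramble replicate 1 the value was 1.16 (adjusted p = 0.95), and without shscramble replicate 2 it was 2.01 (adjusted p = 0.099).

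The input lay the same way for HSPA5. Its input reads were at 703, 634 and 897 CPM in the shMETTL1 replicates and at 389, 504 and 360 CPM in the shscramble replicates, again without overlap. The log2 fold change in the input was 0.83 (standard error 0.32, unadjusted p = 0.020, adjusted p = 0.77, edgeR). Without shscramble input replicate 2 it was 0.99 (adjusted p = 0.45). AlkAniline-Seq over input, tested as an interaction over the 12 libraries, gave 0.65 (standard error 0.53, adjusted p = 0.78, edgeR), so that the difference in AlkAniline-Seq reads was not separated from that in the input. That fit did not pair each library with its own input. With the culture, a library and its input, as a block, the HSPA5 value was 0.79 (standard error 0.44, adjusted p = 0.94, edgeR). Without shscramble replicate 2 and its input the value over input was 1.08 (standard error 0.42, adjusted p = 0.70). Reads come from bulk RNA, in which a larger share of cells with a transcript and more of it per cell cannot be told apart.

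HYOU1 (ENSG00000149428) and DNAJB9 (ENSG00000128590) work with HSPA5. HYOU1, also called GRP170, exchanges its nucleotide, and DNAJB9, or ERdj4, is a J-domain partner that drives its ATPase cycle. HYOU1 had 181, 276 and 124 CPM in the shMETTL1 AlkAniline-Seq libraries and 120, 70.9 and 129 CPM in the shscramble ones. Only shMETTL1 replicate 3 lay within the range of shscramble, and the log2 fold change was 0.86 (standard error 0.51, adjusted p = 0.79, edgeR). In the input HYOU1 had 179, 197 and 297 CPM in shMETTL1 and 62.7, 218 and 112 CPM in shscramble, where shscramble replicate 2 was the high one, and the log2 fold change was 0.78 (SE 0.50, adjusted p = 0.84). Without that library it was 1.36 (adjusted p = 0.51), and the HYOU1 value over input, 0.23 with all libraries (standard error 0.75), was -0.63 without it (standard error 0.66). Without shscramble input replicate 1 the HYOU1 input value was 0.42, and without shMETTL1 input replicate 3 it was 0.51. In AlkAniline-Seq reads it was 0.53 without shMETTL1 replicate 2. The study lists HYOU1 among its genes on these same samples, so its values are not independent evidence of a direction.

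DNAJB9 was sparsely read. It had 74.1, 2.84 and 39.7 CPM in the shMETTL1 AlkAniline-Seq libraries and 31.9, 12.8 and 2.13 CPM in the shscramble ones, the lowest of which was 3 reads. The groups overlapped, and the log2 fold change of 1.31 had a standard error of 1.43. It was 2.35 without shscramble replicate 1 and 0.49 without shMETTL1 replicate 1. In the input the DNAJB9 values ran between 10.3 and 133 CPM in shMETTL1 and between 19.0 and 149 CPM in shscramble, and the log2 fold change of -0.01 was 1.31 without shscramble replicate 2. At that spread between replicates edgeR separated the groups of DNAJB9 in neither assay.

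HSP90B1 (ENSG00000166598), the Hsp90 paralogue GRP94, was the only one of the 10 genes below 0 in AlkAniline-Seq reads. It had 2755, 2325 and 2152 CPM in shMETTL1 and 2541, 2878 and 2872 CPM in shscramble. Only shMETTL1 replicate 1 lay above a shscramble library, and the log2 fold change was -0.20 (standard error 0.21, adjusted p = 0.93, edgeR), from -0.29 to -0.10 when 1 library at a time was left out. In the input HSP90B1 had 1016, 965 and 1212 CPM in shMETTL1 and 808, 1654 and 905 CPM in shscramble. The input value of -0.08 (standard error 0.32) rested on shscramble replicate 2 and became 0.31 without it.

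The lectin chaperones calreticulin (CALR, ENSG00000179218), which is soluble, and calnexin (CANX, ENSG00000127022), which is anchored in the membrane, bind the sugar chains of folding glycoproteins. CALR had 2473, 2006 and 2068 CPM in the shMETTL1 AlkAniline-Seq libraries and 1712, 2323 and 1893 CPM in the shscramble ones. The groups overlapped, and the log2 fold change was 0.14 (standard error 0.22) in AlkAniline-Seq reads, 0.27 (standard error 0.25) in the input and 0.01 (standard error 0.32) over input. In AlkAniline-Seq reads the CALR value was 0.04 without shscramble replicate 1 and 0.31 without shscramble replicate 2. CANX had 429, 242 and 278 CPM in shMETTL1 and 211, 187 and 240 CPM in shscramble. These groups did not overlap, but the lowest shMETTL1 library was only 1.01 times the highest shscramble library, and the log2 fold change was 0.57 (standard error 0.38, adjusted p = 0.85, edgeR), or 0.31 without shMETTL1 replicate 1. In the input CANX had 339, 230 and 382 CPM in shMETTL1 and 243, 28.0 and 223 CPM in shscramble. The input log2 fold change of 0.94 (standard error 0.58) was 0.44 (standard error 0.30) when shscramble replicate 2, the library at 28.0 CPM, was left out.

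The 4 disulfide isomerases make and rearrange disulfide bonds. PDIA3, or ERp57, acts on glycoproteins held by CALR and CANX, P4HB is protein disulfide isomerase itself and a subunit of collagen prolyl 4-hydroxylase, and PDIA4 and PDIA6 are further members of that family. PDIA3 (ENSG00000167004) had 483, 307 and 900 CPM in the shMETTL1 AlkAniline-Seq libraries and 295, 439 and 496 CPM in the shscramble ones. PDIA4 (ENSG00000155660) had 474, 208 and 596 CPM in shMETTL1 and 267, 506 and 391 CPM in shscramble. P4HB (ENSG00000185624) had 1083, 1277 and 1638 CPM in shMETTL1 and 1119, 1178 and 1307 CPM in shscramble. The groups overlapped in each of these genes, and in PDIA4 shMETTL1 replicate 2 lay below the whole shscramble range and replicate 3 above it. PDIA6 (ENSG00000143870), with 588, 326 and 420 CPM in shMETTL1 and 374, 566 and 316 CPM in shscramble, overlapped too. The log2 fold changes of the isomerases in AlkAniline-Seq reads were 0.46 for PDIA3, 0.15 for P4HB, 0.14 for PDIA4 and 0.09 for PDIA6, with standard errors from 0.25 to 0.39 and adjusted p from 0.90 to 0.99 (edgeR).

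In the input the isomerases were at 0.32 for PDIA3, 0.22 for PDIA6, -0.13 for PDIA4 and -0.15 for P4HB, with standard errors from 0.30 to 0.38. PDIA3 had 857, 913 and 847 CPM in the shMETTL1 inputs and 648, 868 and 577 CPM in the shscramble inputs. Its shMETTL1 libraries were close together, with shscramble replicate 2 alone among them. P4HB had 2390, 1911 and 2606 CPM in the shMETTL1 inputs and 2184, 3847 and 1660 CPM in the shscramble inputs, where shscramble replicate 2 was the highest. Without that library P4HB, PDIA4 and PDIA3 were at 0.26, 0.33 and 0.51.

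**Figure D2:**
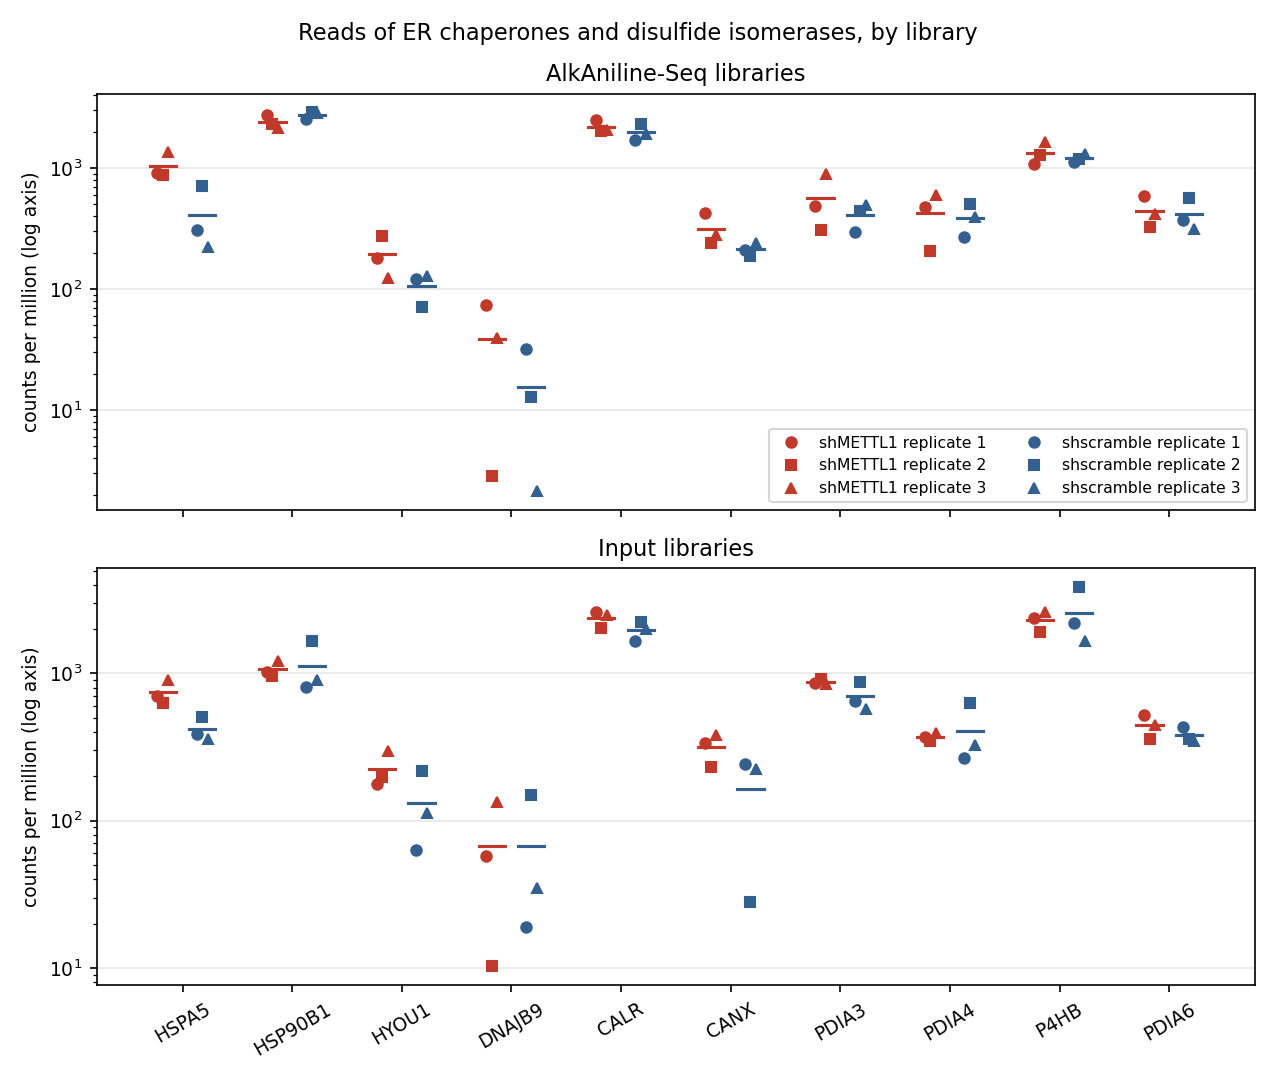
CPM after TMM scaling (vertical log axis) of each gene in the AlkAniline-Seq libraries (top) and the input libraries (bottom), shMETTL1 left of shscramble. Symbols are libraries and horizontal lines are group means, n = 3. HSPA5 does not overlap between groups in either panel, and shscramble input replicate 2 is the high square for HSP90B1 and P4HB and the low one for CANX.

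Over the 10 genes, none passed the adjusted threshold in AlkAniline-Seq reads, in input reads or over input (edgeR), where the background was 0.00901% of gene IDs called in AlkAniline-Seq reads, 0% in the input and 0.00777% over input. At an unadjusted p under 0.05, HSPA5 alone was higher in AlkAniline-Seq reads (background 3.84%) and alone in the input (background 1.64%), and none was lower, against 3.14% in AlkAniline-Seq reads and 4.62% in the input, while no gene was past it over input (background 5.3% higher and 3.04% lower). The count in the input rested on shscramble replicate 2 and on the scaling. HSPA5, HYOU1 and PDIA3 were past that p without the library, 3 of 10 against 3.66%, and HSPA5, HYOU1, CALR and PDIA3 with library size alone, 4 of 10 against 2.5%. HSPA5 and CANX were the 2 of 10 whose shMETTL1 AlkAniline-Seq libraries all lay above shscramble, against 7.1% of all gene IDs, and no gene lay wholly below, against 7.38%. In the input HSPA5 was the 1 of 10, against 7.64%, and no gene lay wholly below, against 5.84%. In AlkAniline-Seq reads 9 of 10 genes were above 0, against 52.9% of all gene IDs, with a median log2 fold change of 0.30 beside 0.07 over all gene IDs. Without shscramble replicate 1 it was 8 of 10 (6289 of 11707 gene IDs), and over the replicates left out one at a time it was 6 to 9. The 6 came without shMETTL1 replicate 3, where 6113 of 12005 gene IDs were above 0.

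**Figure D3:**
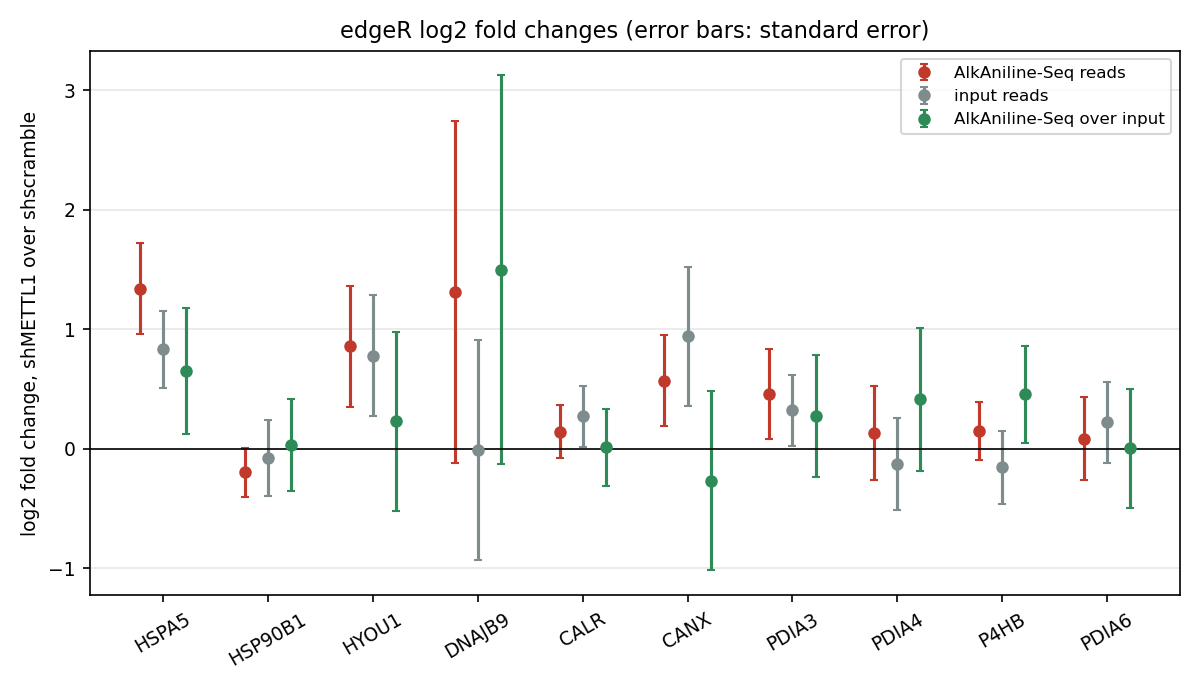
Log2 fold change of shMETTL1 over shscramble for each gene (edgeR, vertical axis) in AlkAniline-Seq reads, input reads and AlkAniline-Seq over input, with standard errors as bars. HSPA5 stands at 1.34, 0.83 and 0.65, and HSP90B1 is the only gene below 0 in AlkAniline-Seq reads.

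How many genes were above 0 in the input depended on the scaling. It was 6 of 10 with TMM (all gene IDs 48.5%, median of the 10 genes 0.25 beside -0.04 over all). With library size alone it was 10 of 10 (7126 of 11740 gene IDs, 0.57 beside 0.22). With DESeq2 it was 5 of 10 (5030 of 10776 gene IDs, 0.0031 beside -0.21). Without shscramble replicate 2 it was 10 of 10 (6336 of 12550 gene IDs, 0.41 beside 0.0077). Relative to the median of all gene IDs, the median of the 10 genes was thus higher in each of these. Over input, 9 of 10 were above 0 with TMM (56.2% of all gene IDs, median 0.25 beside 0.24). With library size alone, 2 of 10 were above 0 over input (5417 of 12877 gene IDs, -0.37 beside -0.28). HSPA5 was above 0 in every comparison under every alternative run, from 0.71 to 2.01 in AlkAniline-Seq reads, from 0.56 to 1.17 in the input and from 0.07 to 1.08 over input.

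**Figure D4:**
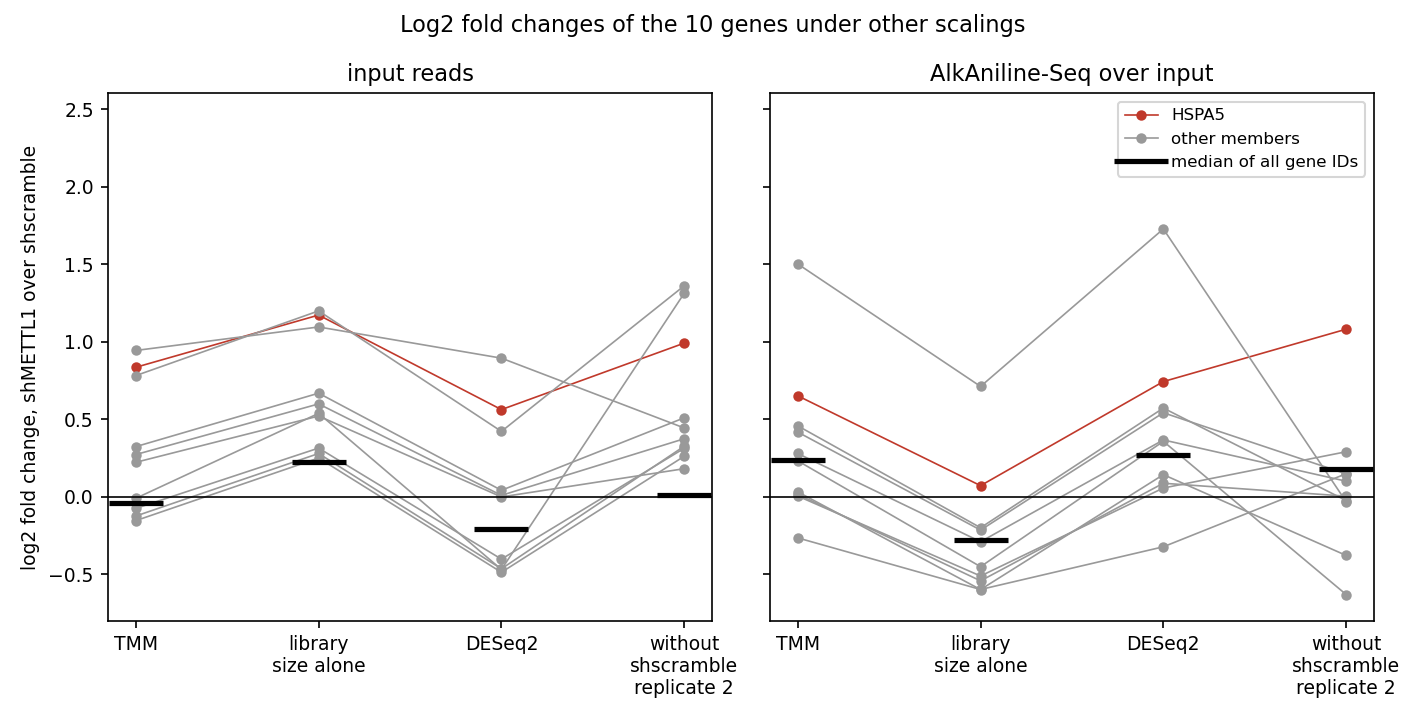
Log2 fold changes of the 10 genes (circles, HSPA5 in red) in the input (left) and over input (right) under TMM, library size alone, DESeq2 and TMM without shscramble replicate 2. The black bars are medians of all gene IDs, which run from -0.21 to 0.22 in the input, and HSPA5 is above 0 throughout.

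The 10 genes together took 0.856 ± 0.140% of AlkAniline-Seq reads in shMETTL1 and 0.805 ± 0.086% in shscramble (SD, n = 3 each), ranges that overlapped. In the input they took 0.977 ± 0.146% in shMETTL1 and 0.686 ± 0.012% in shscramble, without overlap. Such shares follow library size alone, a scaling under which the median log2 fold change of all gene IDs in the input was itself 0.22. How often the summed share of other genes did not overlap was not tested. Input positions of these genes with a read numbered 1469, 755 and 879 in shMETTL1 and 718, 387 and 688 in shscramble, without overlap, beside 153839 to 311979 positions of all genes in shMETTL1 and 72098 to 158448 in shscramble. The part of that wider spread of input reads in the difference was not tested. Scaled by library size alone, without TMM, input reads of HSPA5, HYOU1, CALR, CANX and PDIA3 did not overlap, 5 of 10 against 10.3% of all gene IDs, and AlkAniline-Seq reads of HSPA5 alone did not, 1 of 10 against 5.55%.

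Coverage, the reads that span a position rather than those assigned to it, gave a second reading of the same libraries. It was summed over the listed positions of a gene, so a read that spans several of them was counted at each. For that reason coverage was not tested. As a share of all coverage, HSPA5, DNAJB9, CANX and PDIA3 were without overlap higher in the shMETTL1 inputs, 4 of 10 against 12.1% of gene IDs. Scaled to CPM of all coverage, HSPA5 was at 1782, 1307 and 1803 in the shMETTL1 inputs and 787, 911 and 681 in the shscramble inputs. In the AlkAniline-Seq libraries HYOU1 and DNAJB9 were the 2 of 10 without overlap and higher, against 6.93%. HYOU1 was at 219, 224 and 245 CPM of coverage in shMETTL1 and 106, 164 and 116 in shscramble. DNAJB9 was at 79.6, 32.4 and 104 CPM of coverage in shMETTL1 and 19.2, 12.7 and 10.7 in shscramble, a log2 difference of the means of 2.34, and in the input at 106, 55.7 and 104 in shMETTL1 and 30.8, 26.6 and 35.4 in shscramble, a log2 difference of 1.52. For DNAJB9 coverage and reads thus differed in whether the groups overlapped. HSP90B1 was the 1 of 10 wholly below, against 9.24%, with 3128, 2915 and 2632 CPM of coverage in shMETTL1 and 3459, 3903 and 3304 in shscramble. HSPA5 overlapped there, with 1684, 1282 and 1641 CPM of coverage in shMETTL1 and 805, 1349 and 725 in shscramble, since shscramble replicate 2 passed shMETTL1 replicate 2.

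Single positions were less even than genes. Of the 2482 positions, 1550 had a read in an AlkAniline-Seq library and 84 had one in all 6. The files give positions no coordinate, so exon or UTR could not be assigned. At its most-read position P4HB had 558, 954 and 1085 reads in shMETTL1 and 638, 674 and 327 in shscramble, which was 25.3% of all its AlkAniline-Seq reads. The reads there were 66.3 to 90.3% of coverage in shMETTL1 and 70.3 to 82.7% in shscramble, and in the inputs 92.5 to 98.4% in shMETTL1 and 87.1 to 96.4% in shscramble. The leading position of P4HB thus took a large share of coverage with and without the enrichment. The leading CALR position was at 28.9 to 40.1% of coverage in shMETTL1 and 40.2 to 50.4% in shscramble after AlkAniline-Seq, and at 76.4 to 78.3% in the shMETTL1 inputs and 77.2 to 98.2% in the shscramble inputs. The CALR groups did not overlap after AlkAniline-Seq, by a narrow margin, and overlapped in the input. CALR and PDIA4 were the 2 of the 9 genes with coverage at that position in all 6 AlkAniline-Seq libraries whose shMETTL1 shares all lay below shscramble, against 5.74% of gene IDs.

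HSP90B1 had 432, 683 and 334 reads at its leading position in shMETTL1 and 549, 494 and 502 in shscramble, read in every library. Reads at other leading positions differed many-fold between replicates of a group, and some libraries had none. That of HSPA5 had 180, 0 and 122 reads in shMETTL1 and 29, 0 and 4 in shscramble. That of PDIA3 had 316, 15 and 572 reads in shMETTL1 and 70, 101 and 28 in shscramble. The DNAJB9 position, with 47.8% of the reads of that gene, had 76, 0 and 84 reads in shMETTL1 and 11, 13 and 0 in shscramble. The leading PDIA4 position had 7, 1 and 90 reads in shMETTL1 and 82, 78 and 62 in shscramble. Those reads were 2.89, 0.56 and 51.4% of coverage in shMETTL1 and 63.1, 72.2 and 96.9% in shscramble, without overlap, and the position had no more than 8 reads in any input. Input coverage there was 29, 5 and 63 in shMETTL1 and 77, 475 and 4 in shscramble. In the thinly covered inputs a lack of reads therefore says little.

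**Figure D5:**
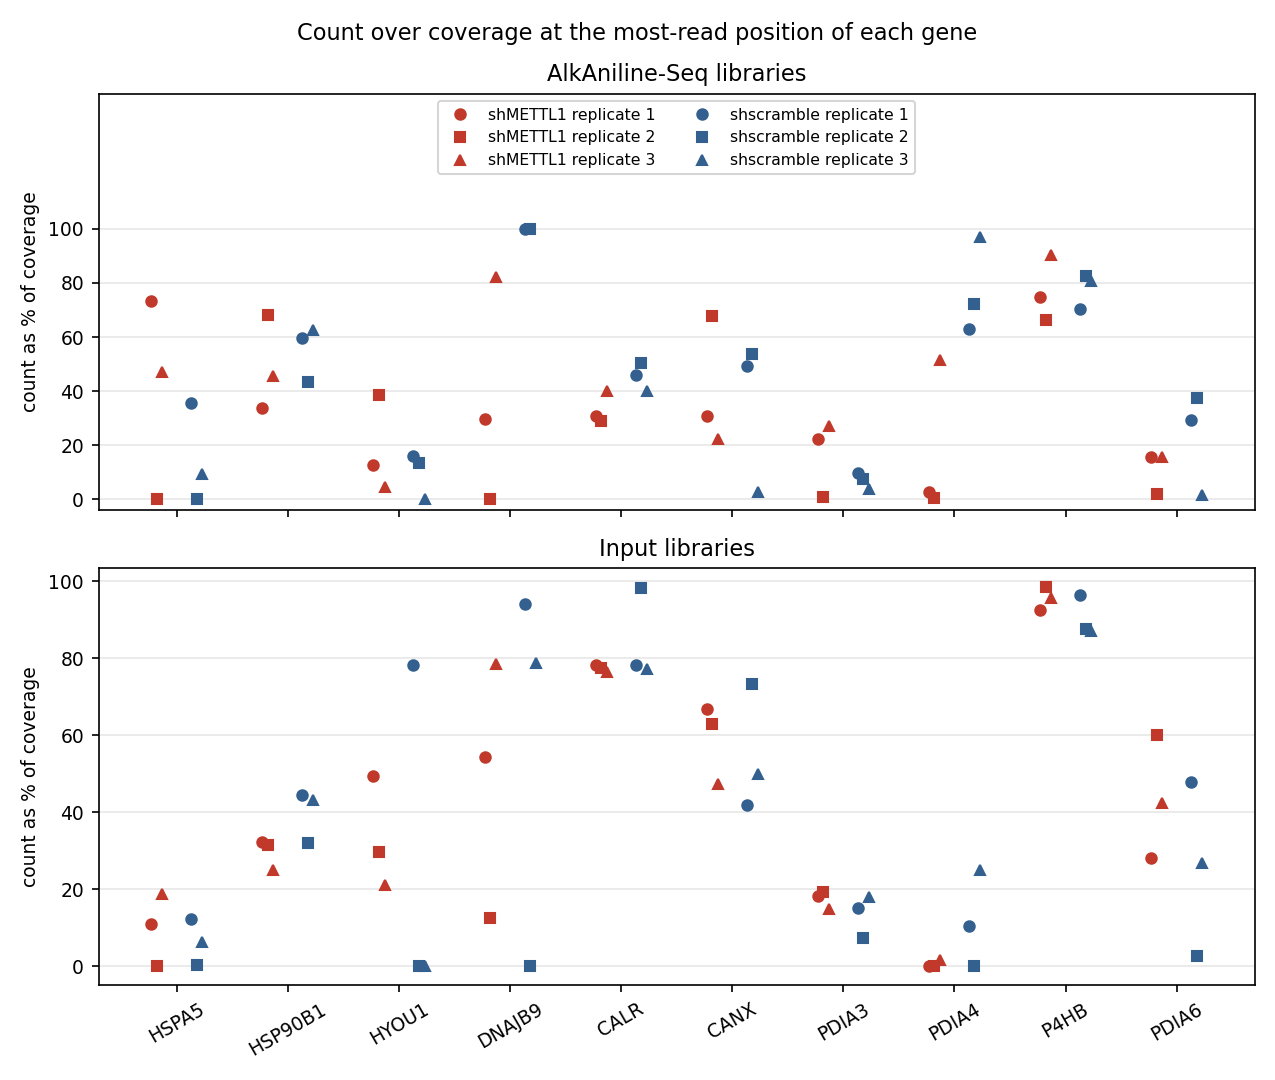
Count as a percent of coverage (vertical axis) at the position of each gene with the most AlkAniline-Seq reads, in AlkAniline-Seq libraries (top) and inputs (bottom), shMETTL1 left of shscramble, with 1 symbol per library. P4HB is above 66% in every library, and after AlkAniline-Seq CALR (40.1% at most in shMETTL1, 40.2% at least in shscramble) and PDIA4 lie lower in every shMETTL1 library. A library with no coverage there has no symbol.

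In the test per position, 184 positions of these genes had enough reads, most of them in CALR (63), HSP90B1 (48), P4HB (27) and HSPA5 (16). None passed the adjusted threshold, nor did any of the 13973 positions of all genes (edgeR, background 0%). At an unadjusted p under 0.05, 4 positions were higher in shMETTL1 (2.17% of 184, background 1.88%) and 12 were lower (6.52%, background 6.32%), shares near the background. The 4 higher ones were in HSPA5 (2), P4HB (1) and PDIA6 (1), and the 12 lower ones in CALR (4), HSP90B1 (3), P4HB (2), CANX, PDIA4 and PDIA6 (1 each). Without shscramble replicate 1, 2 of 259 positions were higher (0.772%, background 2.29%) and 11 lower (4.25%, background 2.87%). DESeq2 called 11 of 173 positions of these genes after adjustment (6.36%, background 5.76%), 3 higher and 8 lower. With edgeR and shscramble replicate 3 left out, 33 of 302 were called (10.9%), beside 5644 positions of all genes (background 19%).

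The HSP90B1 position with the smallest p had 0, 1 and 0 reads in shMETTL1 and 76, 78 and 80 in shscramble. Its log2 fold change was -7.59, with a standard error of 2.21 and an adjusted p = 0.31 (edgeR). A second HSP90B1 position had 1, 1 and 1 reads in shMETTL1 and 32, 82 and 141 in shscramble. Both were nearly empty in every shMETTL1 library, while the reads of the gene as a whole overlapped between groups. Positions in HSPA5 and PDIA6 lay the other way. An HSPA5 position had 46, 128 and 75 reads in shMETTL1 and 0, 2 and 0 in shscramble, and another had 34, 21 and 24 in shMETTL1 and none in shscramble. A PDIA6 position had 312, 145 and 34 reads in shMETTL1 and 2, 1 and 6 in shscramble, beside a second PDIA6 position with none in shMETTL1 and 8, 21 and 78 in shscramble. These positions were picked by their p and describe what the smallest values look like. Each had enough reads for the test only through the group where it was high. Their fold changes are therefore no support for a difference between groups. For those high in shscramble, the limit on the independence of shscramble replicate 1 given above applies as well.

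By the thresholds the study names, fold above 1.5 with p under 0.05 before adjustment, from the methods' t-test on the deposited fold over input (the fraction plus 1 where the input fraction is 0), 4 of the 1550 positions read in these genes were higher (background 0.203%) and 21 lower (background 1.05%). The higher ones lay in HSPA5 (2), CALR (1) and PDIA4 (1). The lower ones lay in HSP90B1 (6), CALR (4), P4HB (3), CANX and PDIA3 (2 each), and HSPA5, HYOU1, PDIA4 and PDIA6 (1 each). Many rested on few reads, since in 13 of the 25 the lowest library of the higher group held only 1 read, and 6 had 10 or more reads in every library of that group. Where a group's mean fold was 0, the ratio was taken here as the other mean plus 1, or its inverse. Of the lower positions, 13 had no read in any shMETTL1 library. A P4HB position passed with 2, 1 and 1 reads in shscramble and none in shMETTL1, so such calls mark presence or absence of reads. The HYOU1 position had 0, 0 and 0 reads in shMETTL1 and 1, 1 and 12 in shscramble, whereas all HYOU1 reads together gave a log2 fold change of 0.86. A CALR position among the lower ones had 241, 7 and 9 reads in shMETTL1 and 82, 84 and 105 in shscramble, so that its highest library was a shMETTL1 one, and its inputs had 78, 77 and 123 reads in shMETTL1 and 7, 5 and 10 in shscramble. Only 8 of the 25 had enough reads for the count test, where edgeR called none after Benjamini-Hochberg adjustment (smallest adjusted p = 0.31) and DESeq2 called 1. Without shscramble replicate 1, 4 of 1430 positions were higher (background 0.225%) and 32 lower (background 1.58%). Leaving out any 1 shMETTL1 library gave 19 to 24 higher (background 1.12 to 1.26%), and leaving out shscramble replicate 2 or 3 gave 79 or 119 lower (background 5.98 or 8.29%).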

How the data were processed

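m7G AlkAniline-Seq and input libraries of LNCaP-AI cells with shMETTL1 or shscramble were analysed, 3 of each. The authors deposited, for each position and library, counts of reads at the position and counts of reads covering it (coverage), a fraction (count over coverage) and its fold over the matching input fraction, a ratio. Tools named in the submitters' processing notes are bedtools 2.24, Bowtie2 2.2.4 and cutadapt 1.9.1, with build hg19. Anything on their roles, on strand, parameters or annotation was not given in the sources used here. Symbols come from the list that defines the 10 genes, since 0 gene IDs matched the reference table.

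Counts were summed per gene ID and tested with edgeR 4.0.16 (TMM, quasi-likelihood, minimum count 10, minimum total 15) in R 4.3.3, per gene, per position and, over input, as an interaction. CPM followed TMM scaling. Standard errors given with edgeR values were derived as the absolute log2 fold change divided by the square root of the F statistic of the test. DESeq2 1.42.0, limma 3.58.1 (pseudocount 1) and the methods' t-test were alternatives. The scripts were tested on simulated data. Python 3.11.15 handled tables and motif searches. With 3 libraries per group an exact permutation test cannot pass 0.05. The coefficient of variation between replicates was 0.90 for AlkAniline-Seq reads per gene, 0.81 for input reads and 1.42 per position. All 10 genes are named, each with its most-read position, and positions with an unadjusted p under 0.05 were counted. The genes, lists and tests were chosen with earlier results of these data known. The study's thresholds, the coverage share and overlap by library size alone were added after seeing the data.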

Additional observations from a re-analysis of the deposited data

How the results depend on the processing

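For HSPA5 the direction was kept under every alternative in all 3 comparisons, and its call was gained in AlkAniline-Seq reads with DESeq2 (1.36) and with no filter (1.46). Over all gene IDs, AlkAniline-Seq reads gave 1 call, against 2 with library size alone, 19 with no filter, 3 with the replicate block, 178 with DESeq2, 0 with the methods' t-test, 0 with the position with the most reads and 0 to 3 with 1 replicate left out. Input reads gave 0 calls, against 95 with no filter, 2 with the replicate block and 35 with DESeq2 (edgeR had 193 gene IDs higher and 542 lower at an unadjusted p under 0.05). Over input, 1 call became 31 with no filter, 0 with the replicate block, 96 with DESeq2, 0 with limma and 0 to 1 with 1 replicate left out. Per position, 0 calls became 5 with no filter, 6 with the replicate block, 713 with DESeq2, 1 where only positions with reads in all 6 libraries were tested, 5051 by the study's thresholds (6446 to 32135 with 1 replicate left out) and 3 to 5644 with 1 replicate left out. Of these, the 10 genes held 1 (HSPA5) with no filter and 1 with DESeq2 in AlkAniline-Seq reads, and 11 positions with DESeq2, 25 by the study's thresholds (36 to 123 with 1 replicate left out) and 0 to 33 with 1 replicate left out. The gene IDs tested in AlkAniline-Seq reads numbered 17561 with no filter and 10260 with DESeq2.

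The 10 genes above 0 numbered 10 with library size alone and 6 to 10 with 1 replicate left out in the input, 2 with library size alone over input and 6 to 9 with 1 left out, and 6 to 9 with 1 left out in AlkAniline-Seq reads. Without shMETTL1 replicate 3 the input had 6 of 10, beside 5871 of 12361 gene IDs. Over input, 6 of 10 were above 0 without shMETTL1 replicate 1, beside 7241 of 13383 gene IDs. Genes without overlap numbered 1 (AlkAniline-Seq) and 5 (input) with library size alone and 4 by share of input coverage.

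Other values changed sign. In AlkAniline-Seq reads CALR went to -0.17 with the position with the most reads, and leaving out 1 replicate gave -0.035 to 0.77 for PDIA3, -0.17 to 0.48 for PDIA4, -0.0076 to 0.30 for P4HB and -0.15 to 0.41 for PDIA6. In the input, library size alone gave 0.31 for HSP90B1, 0.54 for DNAJB9, 0.28 for PDIA4 and 0.25 for P4HB, the replicate block 0.35 for DNAJB9 and DESeq2 -0.0019 for PDIA6. There leaving out 1 replicate gave -0.30 to 0.31 for HSP90B1, -1.02 to 1.31 for DNAJB9, -0.39 to 0.33 for PDIA4 and -0.41 to 0.26 for P4HB. Over input, library size alone gave -0.60 for HSP90B1, -0.45 for HYOU1, -0.54 for CALR, -0.29 for PDIA3, -0.22 for PDIA4, -0.20 for P4HB and -0.51 for PDIA6. There no filter gave -0.092 for HSP90B1, -0.10 for CALR and -0.11 for PDIA6, the replicate block -0.0066 for HSP90B1 and -0.020 for PDIA6, the culture as a block -0.063 for HSP90B1 and limma -0.061 for HSP90B1. Leaving out 1 replicate gave -0.38 to 0.24 for HSP90B1, -0.63 to 0.75 for HYOU1, -0.033 to 2.83 for DNAJB9, -0.074 to 0.11 for CALR, -0.74 to 0.15 for CANX, -0.23 to 0.62 for PDIA3, -0.025 to 0.78 for P4HB and -0.28 to 0.29 for PDIA6. The cause was not tested.

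Same-numbered libraries did not deviate together (correlations from -0.026 to 0.053), so replicate numbers were not taken as pairs, and the replicate block called none of the 10 genes.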
